A study of Rattus norvegicus with 20 samples.

Results

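The genes described here carry out MHC class I peptide processing in rat blood and include the inducible subunits of the immunoproteasome. They are 10 genes, namely Psmb8, Psmb9, Psmb10, Psme1, Psme2, Tap1, Tap2, Tapbp, B2m and Erap1. They were chosen by name with earlier results of these data known. The shares of all probe sets given beside their counts below are therefore descriptions and not a test of the set. The genes were measured by 15 probe sets of the 31042 non-control probe sets on the Affymetrix rat expression array. Of all probe sets, 20826 carried a single gene symbol, which covered 14217 different symbols. For each gene, the probe set with the highest mean signal stands for the gene, and the other probe sets are given where they differ.

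Blood leukocyte RNA from male Wistar rats, an outbred strain, was hybridised on 20 arrays in 4 groups of 5. Rats received 1 oral dose of acetaminophen (APAP) at 1200 mg/kg, and the susceptible and resistant sub-groups were the 5 rats with the highest and the 5 with the lowest serum ALT, an enzyme released by injured hepatocytes, after dosing. The groups were susceptible postdose (SA), resistant postdose (RA), susceptible predose (S) and resistant predose (R), with postdose blood taken 24 h after APAP and predose blood taken about 1 week before it. No array of vehicle-treated rats was used here, so postdose and predose blood differed in day and feeding as well as in APAP, and these cannot be told apart. Predose and postdose blood came from the same rats according to the methods, but the labels do not say which predose array belongs to which postdose array, and the fits treat the arrays as separate samples. The labels give the retro-orbital plexus as the source of the blood, while the methods name the inferior vena cava for the postdose sample. The sub-groups were formed from the ALT measured after dosing and the rats were genetically diverse, so the groups describe rats ranked by injury and not a defined genotype.

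The pathway supplies peptides to MHC class I molecules. Interferons induce 3 alternative catalytic subunits, which replace their constitutive counterparts in newly built proteasomes, and the PA28 activator docks on the ends of the core particle. Peptides are then pumped into the endoplasmic reticulum by the TAP transporter, trimmed there by an aminopeptidase and loaded on class I heavy chains paired with beta-2-microglobulin. In leukocytes these genes are expressed at a high basal level, and several of them lie together in the MHC region.

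In the RefSeq annotation of the GRCr8 assembly, 5 of the 10 genes lay on chromosome 20. Tap2, Psmb8, Tap1 and Psmb9 followed each other with no other annotated gene between them, and Tapbp lay further along the same chromosome. Psme1 and Psme2 lay on chromosome 15, with Emc9 between them, while Psmb10 was on chromosome 19, B2m on chromosome 3 and Erap1 on chromosome 2. Promoter sequences, 250 bases before to 50 bases after an annotated start, were given by RefSeq for 9 of the 10 genes. Distances below are counted from that start. They were searched on both strands for the core of the interferon-stimulated response element (ISRE), GAAANNGAAA, and for the gamma-activated site (GAS), TTCNNNGAA. The ISRE core was present in 7 of the 9 windows, against 3.92% of the 33469 promoter windows of the whole table. The GAS letters were present in 1 of the 9 windows, that of Psmb8, against 8.874% of all windows.

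The windows of the 5 genes that were higher in postdose than in predose blood of susceptible rats are shown so that the motif matches can be seen in place, with 4 of the 5 holding the ISRE core and Psmb9 holding none. Each reads 5′ to 3′ toward its gene, and capitals mark the ISRE core, which reads TTTCNNTTTC where it lies on the other strand.
Tap2 (chr20:4652247-4652546, minus strand): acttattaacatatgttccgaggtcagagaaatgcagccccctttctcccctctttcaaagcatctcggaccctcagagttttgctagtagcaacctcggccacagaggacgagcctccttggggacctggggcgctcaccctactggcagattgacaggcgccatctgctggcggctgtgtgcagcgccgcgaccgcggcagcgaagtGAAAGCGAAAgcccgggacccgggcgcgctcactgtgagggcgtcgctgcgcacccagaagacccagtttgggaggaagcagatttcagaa
Tapbp (chr20:4967828-4968127, minus strand): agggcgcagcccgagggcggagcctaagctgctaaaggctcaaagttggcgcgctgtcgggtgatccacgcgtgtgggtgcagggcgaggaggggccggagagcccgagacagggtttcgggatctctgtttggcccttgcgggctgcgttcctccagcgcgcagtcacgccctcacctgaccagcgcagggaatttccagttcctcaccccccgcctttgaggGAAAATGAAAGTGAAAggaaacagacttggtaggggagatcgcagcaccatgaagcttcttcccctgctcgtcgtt
Psme2 (chr15:33052702-33053001, minus strand): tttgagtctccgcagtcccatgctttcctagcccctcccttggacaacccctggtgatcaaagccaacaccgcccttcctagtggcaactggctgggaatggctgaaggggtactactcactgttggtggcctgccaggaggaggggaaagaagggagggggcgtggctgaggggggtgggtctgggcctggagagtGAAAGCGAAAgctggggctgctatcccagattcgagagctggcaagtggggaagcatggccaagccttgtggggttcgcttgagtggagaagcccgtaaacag
Tap1 (chr20:4668494-4668793, minus strand): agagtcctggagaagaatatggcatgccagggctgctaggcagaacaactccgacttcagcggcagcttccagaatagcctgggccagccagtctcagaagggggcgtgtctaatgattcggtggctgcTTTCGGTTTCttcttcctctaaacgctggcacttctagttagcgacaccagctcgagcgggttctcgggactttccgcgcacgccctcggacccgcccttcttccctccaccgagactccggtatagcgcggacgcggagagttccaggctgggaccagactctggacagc
Psmb9 (chr20:4668750-4669049, plus strand): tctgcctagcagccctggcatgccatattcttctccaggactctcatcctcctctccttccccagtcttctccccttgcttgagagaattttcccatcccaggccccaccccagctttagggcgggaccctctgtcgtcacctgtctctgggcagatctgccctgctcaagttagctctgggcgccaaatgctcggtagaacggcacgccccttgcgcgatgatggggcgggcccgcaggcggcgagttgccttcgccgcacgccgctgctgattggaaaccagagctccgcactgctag

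The ISRE core lay 41 bases before the start of Tap2 and 53 bases before that of Psme2, and both copies read GAAAGCGAAA. The start used for Tap2 was the 5′ end of its annotated gene, while that used for Psme2 lay inside the annotated Psme2 gene. Tapbp held 2 overlapping copies, 26 and 20 bases before its start. In Tap1 the match was on the opposite strand, 121 bases before the start. Psmb9 held neither motif in its window. The starts of Psmb9 and Tap1 were 456 bases apart and faced away from each other, their windows shared 44 bases, and the Tap1 match lay 336 bases before the Psmb9 start. Among the genes whose postdose change did not pass the test, Psmb8 held an ISRE core that began 4 bases before its start and ran across it. Psmb10 held the core 73 and 17 bases before and B2m 150 bases before, while Psme1 had no match. For Psmb8, Psmb9, Psme1, Psme2, Tapbp and B2m the annotated gene reaches further upstream than the start used. The ISRE matches of Psmb8, Psme2 and Tapbp lie inside the gene bounds, and that of B2m lies before them. A match is a description of letters and does not show that a factor binds there.

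**Figure D1:**
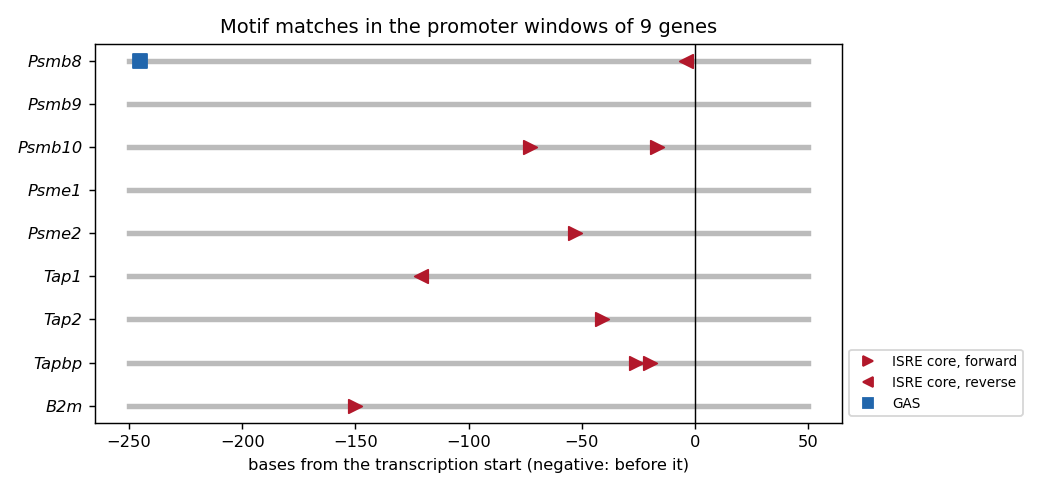
Positions of motif matches in the promoter windows of 9 genes; the horizontal axis gives bases from the transcription start, grey bars show the searched window, triangles mark the ISRE core by strand and the square marks the GAS letters. The ISRE core occurs in 7 of the 9 windows, each match beginning before the start used for the window, and Psmb9 and Psme1 have none. The Psmb8 match runs across the start.

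All 10 genes were well detected. Their signals, scaled so that the median probe set of every array is 1000, were on every one of the 20 arrays above the highest of the bacterial trp control probe sets. For actin, the 3′ probe set exceeded the 5′ one, a 3′ bias that is larger where RNA is less intact. The log2 difference was 0.79 ± 0.10 in susceptible postdose, 0.76 ± 0.10 in resistant postdose, 0.87 ± 0.05 in susceptible predose and 0.80 ± 0.03 in resistant predose blood (SD, n = 5 each). In the comparison of susceptible postdose with susceptible predose blood, which asks what differed after APAP in the rats with the most injury, 5 of the 10 genes rose and none fell. These were Tap2, Tapbp, Tap1, Psme2 and Psmb9, by 1.74-, 1.72-, 1.61-, 1.59- and 1.5-fold. Of these, only Tap1 and Tap2 were still called by the methods' t-test after adjustment and with only the arrays compared in the fit. By the same test (limma, Benjamini-Hochberg adjusted p under 0.05 over all probe sets), 3.86% of all 30747 probe sets tested were higher and 2.8% were lower. Among the 15257 probe sets at or above the array median in mean signal, where all 10 genes lie, 6.91% were higher. The median difference of the 10 genes was 0.50 on the log2 scale, against 0.01 over all probe sets.

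Tap2 encodes 1 of the 2 subunits of the TAP pump. Its log2 signal was 14.64, 14.58, 14.41, 14.48 and 14.42 in susceptible postdose blood, against 13.87, 14.02, 13.61, 13.57 and 13.45 in susceptible predose blood. Every postdose array was above every predose array. The difference was 0.80 (SE 0.15, adjusted p = 0.00277), and Tap2 passed the test in each of the 10 fits that left out 1 array and in each of the 7 other alternative settings. Tap1 encodes its partner subunit. It measured 14.18, 14.02, 14.40, 13.90 and 13.86 in susceptible postdose blood, against 13.59, 13.36, 13.53, 13.22 and 13.25 in susceptible predose blood. Again the groups did not overlap, and the difference of 0.68 (SE 0.15, adjusted p = 0.00928) also passed in all of these fits. A second, dim probe set of Tap1 differed by 0.19 (95% interval -0.63 to 1.0) and was not called. Its interval holds the value of the brighter probe set.

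Psmb9 encodes the inducible subunit that takes the place of the caspase-like subunit of the core proteasome. Its log2 signal was 16.56, 16.30, 16.56, 16.36 and 16.05 in susceptible postdose blood, against 15.88, 15.99, 15.68, 15.50 and 15.85 in susceptible predose blood. The groups did not overlap, although the lowest postdose array, replicate 5, was close to the highest predose array. The difference was 0.59 (SE 0.15, adjusted p = 0.0228). Psmb8, which replaces the chymotrypsin-like subunit Psmb5, measured 16.72, 16.48, 16.68, 16.63 and 16.12 in susceptible postdose blood, against 16.29, 16.24, 16.00, 15.99 and 16.06 in susceptible predose blood. Replicate 5 was again the lowest postdose array and fell within the predose range. The difference of 0.41 (95% interval 0.11 to 0.71) did not pass (adjusted p = 0.104), and it did without that array (0.51, adjusted p = 0.0406). Psmb10, which replaces the trypsin-like subunit Psmb7, differed by 0.23 (95% interval -0.13 to 0.58, adjusted p = 0.528), with overlapping groups.

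Psme1 and Psme2 encode the alpha and beta subunits of PA28, which assemble into 1 ring. Psme2 measured 16.99, 16.50, 16.82, 16.75 and 16.34 in susceptible postdose blood, against 16.25, 16.21, 15.72, 15.67 and 16.24 in susceptible predose blood. All postdose arrays were above all predose arrays, and the predose arrays fell into a higher set (replicates 1, 2 and 5) and a lower pair. The difference of 0.67 (SE 0.19, adjusted p = 0.0470) was just past the threshold, and Psme2 passed in only 1 of the 10 fits that left out an array, with values of 0.58 to 0.75 and adjusted p of 0.0401 to 0.124. Psme1 differed by 0.09 (95% interval -0.19 to 0.37, adjusted p = 0.789), and its sign turned under quantile normalization. That interval excludes an increase in the measured Psme1 signal, which stood at percentile 99.385 of all probe sets, as large as the fitted difference of Psme2.

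Tapbp encodes tapasin, which bridges class I molecules to TAP and edits their peptide load. Its log2 signal was 15.16, 14.55, 15.29, 14.27 and 14.76 in susceptible postdose blood, against 14.14, 14.27, 13.66, 13.73 and 14.34 in susceptible predose blood. The spread among the postdose arrays was the widest of the 10 genes (SD 0.42, n = 5), and postdose replicate 4 lay below predose replicate 5. The difference was 0.78 (SE 0.22, adjusted p = 0.0382). B2m, the light chain of class I molecules, differed by 0.10 (95% interval -0.18 to 0.37), and its sign also turned under quantile normalization. Erap1, the aminopeptidase that trims peptides in the endoplasmic reticulum, differed by -0.04 (95% interval -0.26 to 0.18). Neither passed the test, and the intervals leave no room for a change in measured signal as large as the fitted value of Tap2. The B2m probe set stood at percentile 99.968 of mean signal, and whether signals this high follow RNA in proportion was not tested. Groups that did not overlap were found for 4 of the 10 genes (Tap1, Tap2, Psmb9 and Psme2), with the postdose arrays above, against 3.93% of all probe sets.

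The calls of Psmb9, Tapbp and Psme2 depended on single arrays and on the setting. Without 1 susceptible array, 2 to 5 of the 10 genes were called. Psmb9 kept its call in 6 of 10 such fits and Tapbp in 4 of 10. In the 7 other alternative settings Psmb9 and Tapbp passed in 4 each and Psme2 in 2. Psmb9 lost its call without susceptible predose replicate 3 or 4 or postdose replicate 1 or 3, and Tapbp lost its own without any of these, without predose replicate 1 or without postdose replicate 5. Psme2 kept its call only without postdose replicate 5.

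**Figure D2:**
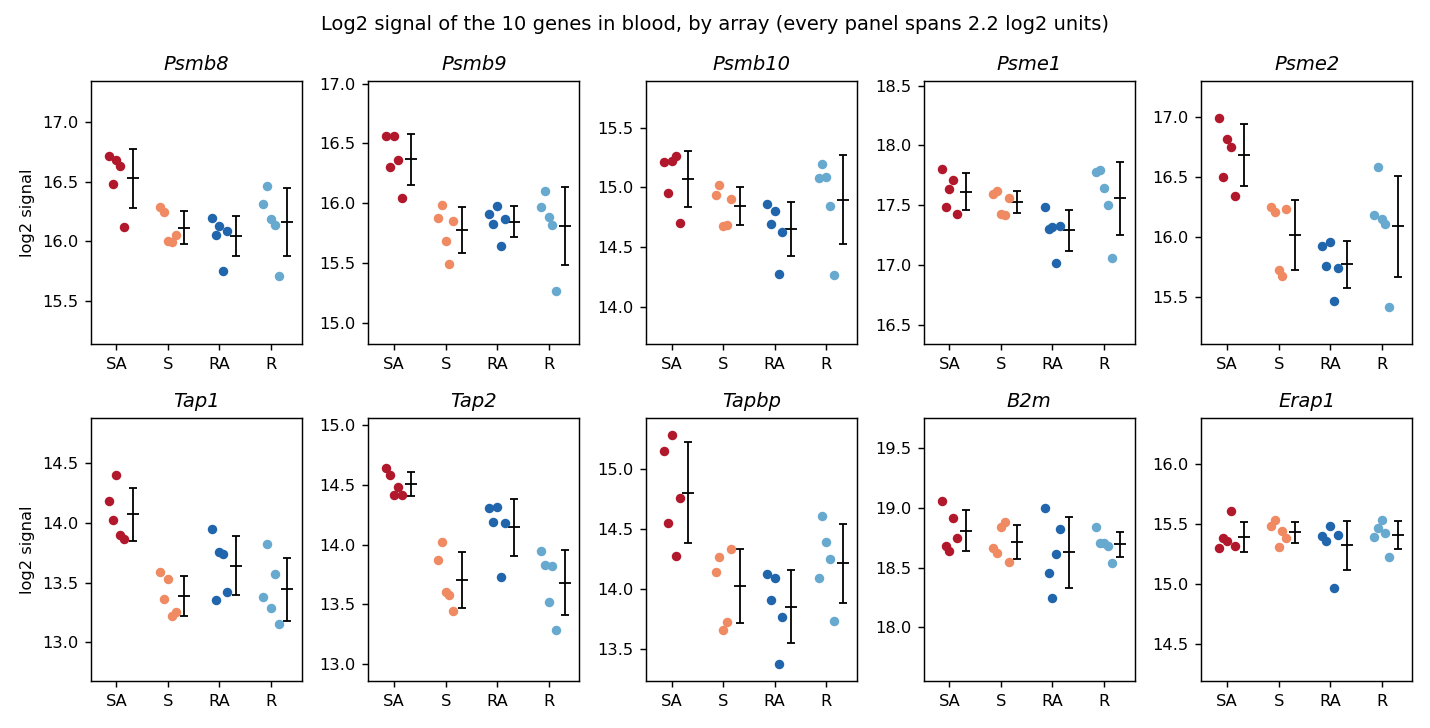
Log2 signal of each of the 10 genes on each of the 20 arrays (vertical axis, scaled to an array median of 1000), for susceptible postdose (SA), susceptible predose (S), resistant postdose (RA) and resistant predose (R) blood; points are arrays, in replicate order, and bars to their right are the mean ± SD (n = 5). SA lies above S without overlap for Psmb9, Psme2, Tap1 and Tap2, and the lowest R point is replicate 5 in every panel.

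In resistant rats the corresponding comparison of postdose with predose blood gave no call among the 10 genes, in a fit where 2.51% of all probe sets were higher and 2.6% lower. Of all 30747 probe sets, 5267 had an unadjusted p under 0.05 in either direction, and of the 10 genes 1 did, Tap2. It measured 14.31, 14.19, 14.32, 13.73 and 14.18 in resistant postdose blood, against 13.94, 13.83, 13.52, 13.82 and 13.28 in resistant predose blood. Only postdose replicate 4 lay within the predose range. The difference was 0.46 (95% interval 0.16 to 0.77, adjusted p = 0.0823), and without that array it was 0.57 with an adjusted p of 0.0279. Tap1 differed by 0.20 (95% interval -0.12 to 0.51) and Psmb9 by 0.04 (95% interval -0.28 to 0.35). The other 7 genes had fitted differences below 0, the lowest being -0.36 for Tapbp (95% interval -0.82 to 0.09, adjusted p = 0.439) and -0.32 for Psme2 (95% interval -0.73 to 0.09, adjusted p = 0.451). The median of the 10 genes was -0.10, against -0.01 over all probe sets.

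Psme2 measured 15.93, 15.76, 15.96, 15.46 and 15.74 in resistant postdose blood, against 16.18, 16.58, 16.15, 16.11 and 15.41 in resistant predose blood. Tapbp measured 14.12, 13.91, 14.09, 13.38 and 13.76 in resistant postdose blood, against 14.10, 14.61, 14.39, 14.25 and 13.73 in resistant predose blood. For Psme2 4 of the 5 predose arrays, and for Tapbp 3 of the 5, stood above every postdose array, and predose replicate 5 was lower than the rest of its group. That array had the lowest value of its group for 10 of the 10 genes, and resistant postdose replicate 4 had the lowest for 8 of 10. Averaged over the 10 genes and centred on the mean of all arrays, these arrays stood at -0.50 (resistant predose replicate 5) and -0.41 (resistant postdose replicate 4), against -0.25 to 0.50 for the other arrays. The same arrays had the lowest medians of 9 monocyte and macrophage markers, at -0.74 in resistant predose replicate 5 and -0.75 in resistant postdose replicate 4, centred in the same way. They were also the lowest for 27 other class I pathway genes, at -0.31 and -0.32. The next lowest array for the monocyte and macrophage markers, susceptible postdose replicate 2 at -0.55, stood at 0.23 for the 10 genes. In a whole-blood leukocyte sample, fewer cells of a type and less RNA per cell cannot be told apart, and the part of these markers in the values was not tested.

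Whether the postdose change differed between the sub-groups was tested directly as the difference of the 2 changes. None of the 10 genes passed after adjustment, and 0% of all probe sets did, while 2122 of 30747 had an unadjusted p under 0.05. The fitted difference in change was above 0 for all 10 genes (for Erap1 not under quantile normalization or on the deposited scale), with a median of 0.48 against 0.02 over all probe sets. It was 1.14 for Tapbp (95% interval 0.50 to 1.79, adjusted p = 0.353 by limma) and 0.98 for Psme2 (95% interval 0.41 to 1.56, adjusted p = 0.385 by limma). Psmb9, Psmb8 and Tap1 followed at 0.55, 0.53 and 0.48, so that 5 of the 10 genes were higher at an unadjusted p under 0.05, against 4.1% of all probe sets and 5.2% of those at or above the array median. For Tap2 the difference in change was 0.34 (95% interval -0.10 to 0.77). Erap1 had the smallest value, 0.05.

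**Figure D3:**
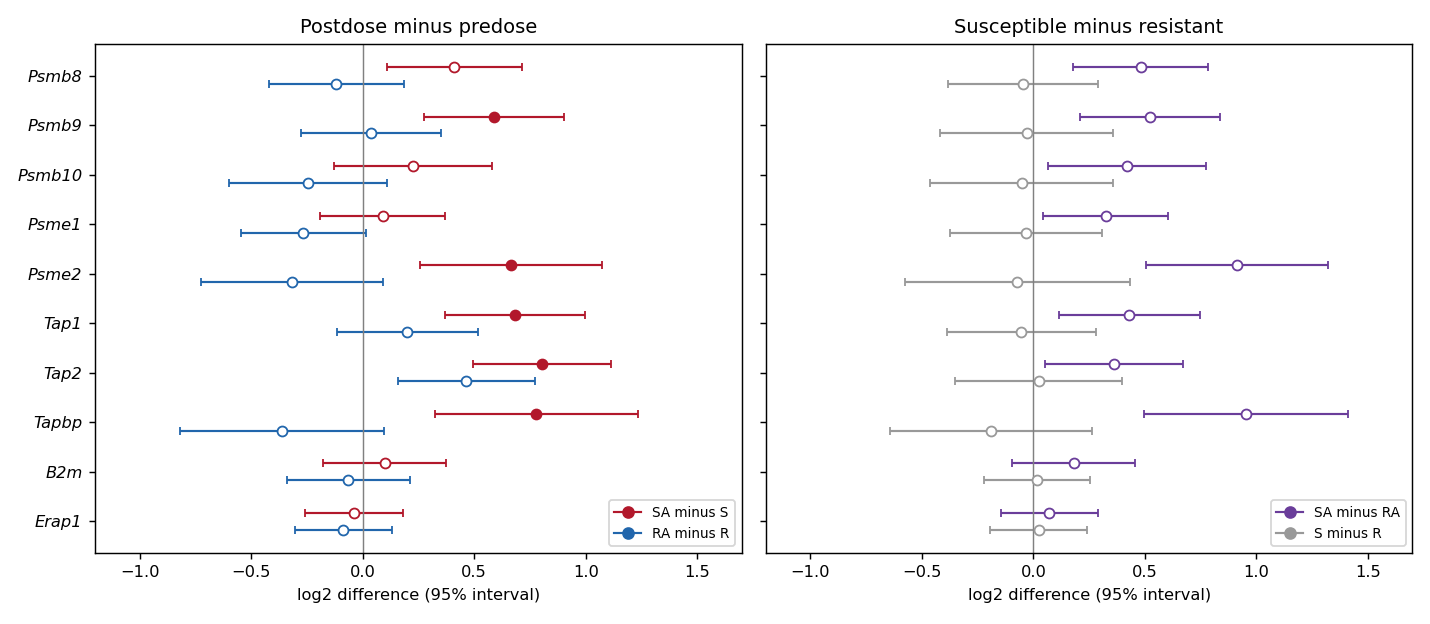
Fitted log2 differences of the 10 genes with 95% intervals, for SA minus S and RA minus R (left) and for SA minus RA and S minus R (right); filled points have an adjusted p under 0.05 and open points do not. Filled points occur only for SA minus S, at Psmb9, Psme2, Tap1, Tap2 and Tapbp, and all 10 SA minus RA points lie right of 0, that of Erap1 not under quantile normalization.

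After dosing, susceptible blood was compared with resistant blood, both 24 h after APAP. None of the 10 genes passed the adjusted threshold, at which 0.143% of all probe sets (44 of 30747) were called in either direction. The fitted values of all 10 genes were higher in susceptible blood (that of Erap1 not under quantile normalization), with a median of 0.42, against -0.00 over all probe sets. The largest were those of Tapbp, at 0.95 (95% interval 0.50 to 1.41, adjusted p = 0.0922 by limma), and Psme2, at 0.91 (95% interval 0.51 to 1.32, adjusted p = 0.0737 by limma). These correspond to 1.94- and 1.88-fold. The postdose values of Psme2 given above ran between 16.34 and 16.99 in susceptible rats and between 15.46 and 15.96 in resistant rats, with a gap between the groups. For Tapbp the susceptible arrays spanned 14.27 to 15.29 and the resistant arrays 13.38 to 14.12, again without overlap.

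Psmb9, Psmb8, Tap1, Psmb10, Tap2 and Psme1 had smaller postdose differences of 0.52, 0.48, 0.43, 0.42, 0.36 and 0.32, with adjusted p of 0.202 to 0.446. With Tapbp and Psme2, 8 of the 10 genes were thus higher at an unadjusted p under 0.05, against 5.1% of all probe sets and 7.04% of those at or above the array median. All 5 susceptible arrays stood above all 5 resistant arrays for Psmb9, Psme2, Tap2 and Tapbp, 4 of 10 genes, against 1.56% of all probe sets and 2.65% of those at or above the array median. B2m differed by 0.18 (95% interval -0.10 to 0.46) and Erap1 by 0.07 (95% interval -0.15 to 0.29). This comparison uses the same susceptible postdose arrays as the comparison with predose blood, so the pair is not independent. Leaving out susceptible postdose replicate 4 brought Tapbp past the threshold (1.09, adjusted p = 0.0449), and requiring a higher mean signal of the probe sets tested brought in Psme2 and Tapbp (adjusted p = 0.0250 and 0.0326).

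Before dosing, the sub-groups were compared to ask whether blood already differed in rats that would later show high or low ALT. None of the 10 genes passed the test in the 10 predose arrays, where 0.00329% of all probe sets (1 of 30416) did. None of the 10 had an unadjusted p under 0.05, against 1138 of the 30416 probe sets. The fitted differences ran from -0.19 for Tapbp to 0.02 for Tap2, with a median of -0.04 against -0.02 over all probe sets. For Tap1 the difference was -0.05 (95% interval -0.39 to 0.28), and for Psme2 it was -0.07 (95% interval -0.58 to 0.43). For Psmb9, Psmb8 and B2m the intervals were -0.42 to 0.36, -0.38 to 0.29 and -0.22 to 0.25. The postdose differences of Psmb8, Psmb9, Psmb10, Psme1, Psme2, Tap1 and Tapbp lay outside their predose intervals, and those of Tap2, B2m and Erap1 lay inside. Predose and postdose differences were not tested against each other except through the difference in change.

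The second probe sets added little. The second B2m probe set, which is bright, differed by 0.23 between susceptible and resistant postdose blood (95% interval 0.01 to 0.45, adjusted p = 0.525), close to the value of the first. A bright second probe set of Erap1 gave 0.06 (95% interval -0.13 to 0.26), and the dim probe sets of Erap1 and Psme1 had wide intervals. No second probe set passed the test in any comparison.

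Across the 20 arrays the 10 genes tended to move together. Over their 45 pairs the median Pearson correlation was 0.67, and it was 0.62 once the 4 group means were removed, with a range of -0.13 to 0.96. These are descriptions over arrays that share groups and scaling. Of 14207 other genes, those most like the mean of the 10 genes were LOC100910973, a long non-coding RNA in RefSeq (Pearson r = 0.96, Spearman rho = 0.94), Tmbim4 (r = 0.94), the glutaredoxin gene Glrx (r = 0.93), Psma5, an alpha subunit of the core proteasome (r = 0.93), the actin-capping protein gene Capg (r = 0.93) and the lysosomal protease gene Ctsh (r = 0.92). Between susceptible postdose and predose blood, LOC100910973 differed by 0.70 (adjusted p = 0.00931), Capg by 0.87 (adjusted p = 0.0378) and Glrx by 0.62 (adjusted p = 0.0320), while Tmbim4, Psma5 and Ctsh did not pass. These genes were picked for likeness over the same arrays. Their differences therefore follow in part from the pick and are no separate evidence, and the adjusted p does not account for it.

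Other genes of the proteasome and of the class I route were described beside the 10 genes. Of the other proteasome genes listed, 4 were measured, namely the replaced subunits Psmb5 and Psmb7, the activator gene Psme4 and Pomp, and none was called in any comparison. Psmb5, whose place Psmb8 takes, differed by 0.01 between susceptible postdose and predose blood (SE 0.13), and Pomp, a proteasome assembly chaperone, differed by 0.07 (SE 0.13). Psmb7 differed by 0.11 (SE 0.16) and Psme4 by 0.26 (SE 0.11). All 4 genes had fitted values above 0 between susceptible and resistant postdose blood (median 0.19) and in the difference in change (median 0.21). Of 27 further class I genes, 2 rose in susceptible rats after dosing and none fell, with a median of 0.09. These were Nlrc5, the transactivator of class I genes, at 0.99 (SE 0.25, adjusted p = 0.0201), a fitted value above that of each of the 10 genes, and Pdia3, a disulfide isomerase of the peptide-loading complex, at 0.48 (SE 0.13, adjusted p = 0.0374). In resistant rats 1 rose, RT1-A3, a class I heavy chain gene, at 0.64 (SE 0.12, adjusted p = 0.00479), with a list median of -0.12. RT1-A3 differed by 0.36 in susceptible rats, without a call (adjusted p = 0.103 by limma). Before dosing it was 0.36 higher in susceptible than in resistant blood, also without a call, and after dosing the difference was 0.08. The RT1 class I genes are near-identical copies, so which of them a probe set measured is uncertain. Between susceptible and resistant postdose blood none of the 27 passed, and the median was 0.14, with Nlrc5 at 0.94 and RT1-S3 at 0.85 highest. Of 8 MHC class II genes none was called in any comparison, and their median was -0.34 in susceptible and -0.40 in resistant rats after dosing.

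Interferon response genes were examined beside them because interferons induce the pathway. Of 16 genes of the interferon-gamma response, 8 rose in susceptible rats after dosing and none fell (median 0.65). They included Irf1, the transcription factor that binds ISRE-type sequences, at 0.71, the GTPase genes Gbp2, Igtp and Irgm at 2.03, 1.38 and 1.62, and Cxcl11, a T cell chemokine, at 2.27. In resistant rats Ifngr1 rose by 0.54 and Cxcl10 fell by 2.25, with a median of -0.16. Between susceptible and resistant postdose blood 5 of the 16 were higher and none lower (median 1.08), namely Irf1 at 0.91, Gbp2 at 1.99, Irgm at 1.60, Cxcl10 at 3.71 and Cxcl11 at 2.66. For Irf1 and Gbp2 the adjusted p was 0.00967. Ifng itself differed by -0.07 with an SE of 0.86.

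Of 15 type I interferon response genes, 5 rose in susceptible rats after dosing (Ifit3, Oas1a, Stat2, Usp18 and Ifih1, by 1.24 to 1.88) and none fell, with a median of 1.24. In resistant rats Ifit1 rose by 0.73 and Irf7 fell by 1.14, with a median of -0.59. Stat2, a subunit of the factor that binds the ISRE, and Usp18, a brake on interferon signalling, were higher in susceptible than in resistant postdose blood, at 1.34 and 2.61, and the list median was 1.34. The difference in change passed the adjusted threshold for none of the genes of either interferon list. Resistant predose replicate 5 and resistant postdose replicate 4, low for the 10 genes, stood at -1.09 and -1.0 in the median of the type I list, and susceptible predose replicate 4, at -0.25 for the 10 genes, stood at -1.04. The same 2 resistant arrays were also the lowest for the 4 other proteasome genes, at -0.31 in resistant predose replicate 5 and -0.40 in resistant postdose replicate 4.

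**Figure D4:**
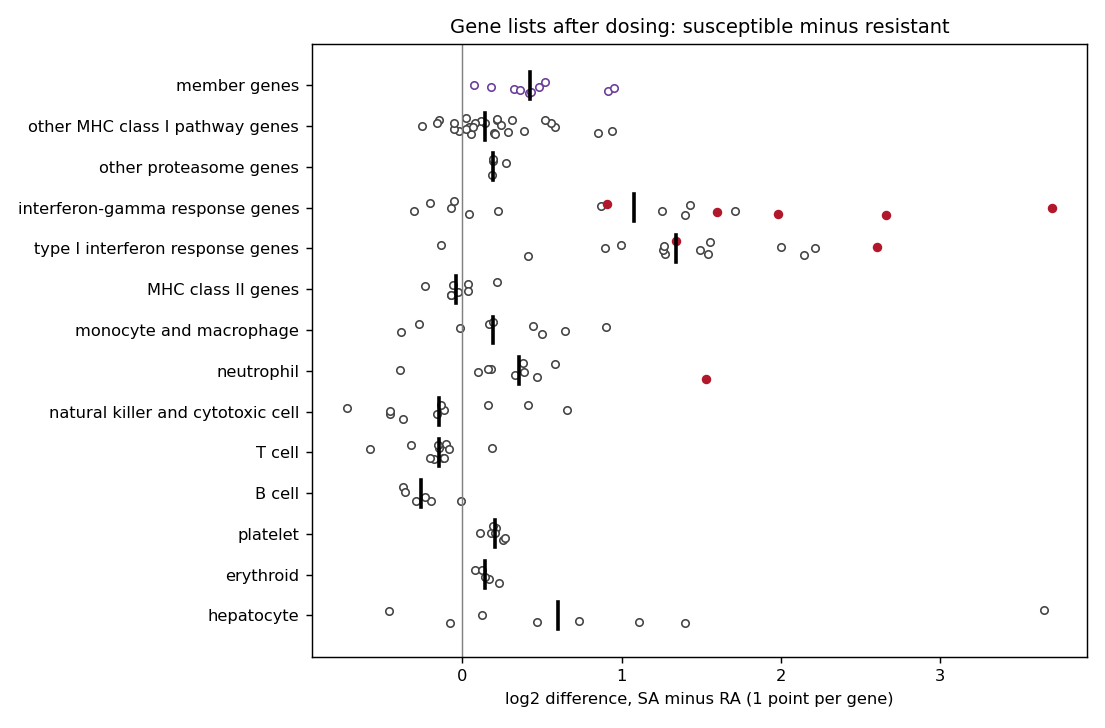
Log2 difference between susceptible and resistant postdose blood (horizontal axis) for each gene of the lists named at the left; each point is a gene, red points have an adjusted p under 0.05, and black bars are list medians. The 10 genes (top row) all lie right of 0, Erap1 not under quantile normalization, with a median of 0.42, and the medians of the interferon lists are 1.08 and 1.34.

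Markers of blood cell types also moved with dosing. Of 10 natural killer and cytotoxic cell markers, 9 rose after dosing in susceptible rats and 9 in resistant rats, and their summed signal was 422288 to 700065 in susceptible postdose, 530429 to 754513 in resistant postdose, 250254 to 341716 in susceptible predose and 240897 to 411955 in resistant predose blood. Of 10 neutrophil markers, 5 rose and 1 fell in susceptible rats and 3 rose in resistant rats, with summed signals of 933295 to 1463320, 876508 to 1084782, 558757 to 727002 and 544692 to 776254 in the same order of groups. Between susceptible and resistant postdose blood none of the natural killer markers passed, and 1 neutrophil marker, Il1r2, was higher.

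Of 9 monocyte and macrophage markers, 1 rose and 2 fell in susceptible rats after dosing, and their summed signal was 466813 to 641380 in susceptible postdose, 404760 to 591075 in resistant postdose, 482661 to 533634 in susceptible predose and 385993 to 568927 in resistant predose blood. B cell markers fell in 3 of 6 cases in susceptible rats, and T cell markers were present on every array and had no call there. Of 8 hepatocyte markers, only Alb was called in susceptible rats, at 3.17 (adjusted p = 0.0161 by limma). Fitted differences were above 0 for 6 of the 8, with a list median of 0.88. The summed signal of the list was low, at 3868 to 27246 in susceptible postdose and 2203 to 3781 in resistant postdose blood. Its highest sums were 27246 and 17158, in susceptible postdose replicates 3 and 1. The part of these cell types in the values of the 10 genes was not tested.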

How the data were processed

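The members and the gene lists were chosen with earlier results of these data known. RNA of blood leukocytes, with red cells lysed, was hybridised on 1-colour arrays. The authors deposited 1 linear signal intensity per probe set and array; the software behind these signals is not given in the sources used here, and the methods name scaling to a median of 1000, whereas the deposited array medians were 187 to 223. Here each array was divided by its median over 31042 probe sets, with 57 controls left out, multiplied by 1000 and taken to log2. Probe sets with a scaled signal of at least 100 on 1 or more arrays of the fit were tested. Group differences were fitted with limma 3.58.1 in R 4.3.3 on all 20 arrays, or on the 10 predose arrays for the predose comparison, with Benjamini-Hochberg adjustment over all probe sets tested and a call at an adjusted p under 0.05. All 10 members were described. Of the genes of other lists that passed, some were named and others only counted or left out. Genes of other lists that did not pass were named as examples. The 6 genes most like the members were taken by Pearson r. Names came from the platform annotation: 436 probe sets had several symbols and 9780 had none. The fit was tested on simulated data. Alternatives were quantile normalization, the deposited scale, no filter and a stricter filter (mean signal of 500), the methods' t-test, other array sets, a replicate block and leaving out each array. The labels call each group's arrays different rats but do not tie predose to postdose numbers, although the methods have the same rats bled at both times, and same-numbered arrays did not all deviate together, so arrays were not paired; their number limits the precision. Protein sequences were not used here. Python 3.11.15 with matplotlib 3.10.9 made the plots.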

Additional observations from a re-analysis of the deposited data

Results flagged for a closer look

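In 3 of 40 groups of 5 arrays, for the 10 genes in 4 groups, the lowest or highest array stood apart from the rest, where chance gives about 1 in 20. Tap2 was 13.73 in resistant postdose replicate 4, with the nearest array at 14.18. Erap1 was 14.97 in resistant postdose replicate 4, with the nearest array at 15.36, and 15.61 in susceptible postdose replicate 4, with the nearest at 15.39.

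For Psme2 and Tapbp every susceptible postdose array was above the predose mean of its sub-group and every resistant postdose array was below its own. The share of all probe sets with such a pattern was not counted, so how common it is cannot be told. The difference in change was 0.98 for Psme2 and 1.14 for Tapbp. This difference was tested by limma and did not pass the adjusted threshold (adjusted p = 0.385 for Psme2 and 0.353 for Tapbp).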

How the results depend on the processing

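Susceptible postdose minus predose: the number of the 10 genes called was 5, and it was 2 by the methods' t-test after adjustment, 2 with only the arrays compared in the fit and 2 with a replicate block, always Tap1 and Tap2, and 2 to 5 when 1 array was left out. Over all probe sets the 2048 calls became 582, 910 and 1290 under these settings, and 1332 to 2270 without 1 array. Psme2 also lost its call under quantile normalization (0.50) and on the deposited scale (0.63). Under quantile normalization the difference turned to -0.106 for Psme1 and -0.0404 for B2m. Resistant postdose minus predose: Tap2 was called under quantile normalization and the stricter filter, 1 gene each, and 0 to 1 gene without 1 array. The 1570 calls over all probe sets became 734, 968 and 970 by the methods' t-test, with only the arrays compared and with a replicate block, and 967 to 1661 without 1 array. Without 1 array, Psmb9 ran from -0.101 to 0.109, B2m from -0.158 to 0.0302 and Erap1 from -0.132 to 0.0012. Difference in change: the 0 calls over all probe sets became 7 under the stricter filter and 0 to 2 without 1 array. Erap1 turned to -0.0857 under quantile normalization and to -0.0009 on the deposited scale, and ran from -0.0403 to 0.0933 without 1 array. Susceptible minus resistant postdose: 2 genes (Psme2 and Tapbp) were called under the stricter filter and 0 to 1 without 1 array. The 44 calls over all probe sets became 73 under quantile normalization, 179 under the stricter filter, 0 by the methods' t-test and 1 with a replicate block, and 7 to 89 without 1 array. Erap1 turned to -0.0440 under quantile normalization and ran from -0.0164 to 0.112 without 1 array. Susceptible minus resistant predose: the single call over all probe sets became 0 under the stricter filter, by the methods' t-test, with all 20 arrays in the fit and with a replicate block, and 0 to 2 without 1 array. Without 1 array the predose difference ran from -0.167 to 0.0431 for Psmb9, -0.157 to 0.0281 for Psme1, -0.160 to 0.0268 for Psmb8, -0.209 to 0.0219 for Psmb10, -0.241 to 0.0520 for Psme2, -0.126 to 0.0412 for Tap1, -0.0747 to 0.0906 for Tap2, -0.0249 to 0.0570 for B2m and -0.0214 to 0.0560 for Erap1. No other direction of the 10 genes changed, and no called value changed sign. None of the 10 genes met the criteria of the methods, an unadjusted p under 0.05 with a fold change of at least 2, in any of the 4 comparisons of groups. The cause of these changes was not tested. Low signal limited the dim probe sets, of which that of Psme1 was above the highest trp control on 16 of 20 arrays. The same rats gave predose and postdose blood, but nothing in the labels ties a number to a rat at both times, so whether the paired fits match the true pairs is not known. Same-numbered arrays correlated at -0.0787 or -0.164 in 2 susceptible pairs and up to 0.196 in the others, and at 0.0898 to 0.158 in the 5 resistant pairs. Of the postdose arrays, 2 of 5 susceptible and 4 of 5 resistant ones correlated best with the predose array of their own number.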
